A study of Drosophila melanogaster with 11 samples.

Results

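Odorant-binding protein genes encode small secreted proteins that carry hydrophobic molecules through the fluid around sensory neurons. The members described here were all linear genes whose symbol is Obp followed by a digit and whose mean over the 11 libraries was 10 or more normalized reads. This rule gave 34 genes out of 13804 linear genes in the table. Of 37 such symbols in the table, Obp84a, Obp19a and Obp50e stayed below the minimum, with means of 6.21, 4.43 and 3.07 normalized reads, and the members nearest above it were Obp47a, Obp56b and Obp99a with means of 10.5, 13.7 and 19.9. All 34 passed the filter on low values used in the tests because that filter is the same minimum.

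The libraries came from heads of wild-type CantonS males (strain CS in the labels), reared at 25 °C in 12 h of light and 12 h of dark. Pre-treatment heads (n = 3) were frozen when the exposure began, and the other flies were kept for 10 days at 18 °C (n = 3), 25 °C (n = 2) or 29 °C (n = 3) before freezing. All groups had been mated and had recovered from CO2 before the start, and no group carried a transgene or an agent. Per the study's methods each library pools the heads of many males, so that the spread is between pools. The methods give an age of 3 days for the males of the temperature treatment. The 25 °C flies against the pre-treatment flies therefore give the effect of the next 10 days of age at the rearing temperature. Maturation of young adults and ageing cannot be told apart in this comparison. The 29 °C flies against the 18 °C flies give the effect of temperature at the same time of collection. The study states that temperature changes how fast flies age, so these 2 groups may also differ in physiological age. That difference cannot be told apart from temperature itself in this design.

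In flies these proteins are made mostly by support cells of the antenna, the maxillary palp and the taste organs of the labellum and legs, and some are made by fat body, glia or the male reproductive tract. The antennal members Obp83a, Obp83b, Obp28a and Obp69a are classical carriers of the olfactory hairs, Obp19b, Obp49a, Obp56g and Obp57e are known from taste, Obp44a is a lipid carrier of glia, and Obp99b is a product of the male head fat body. The genes lie in clusters that arose by duplication.

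Levels differed widely among the members. Per kb of exon, Obp19d, found in taste organs and beneath the cuticle, was the highest with a mean of 75403 normalized reads, and Obp44a, Obp99c, Obp56g, Obp56d and Obp99b followed with 52583, 39347, 35010.5, 30388 and 24332. The carriers of the antenna were among the low members on the same scale, with 205 for Obp69a, 179 for Obp28a, 38.4 for Obp83b and 32.0 for Obp83a. The lowest means per kb belonged to Obp56b and Obp47a, at 24.0 and 21.0.

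**Figure D1:**
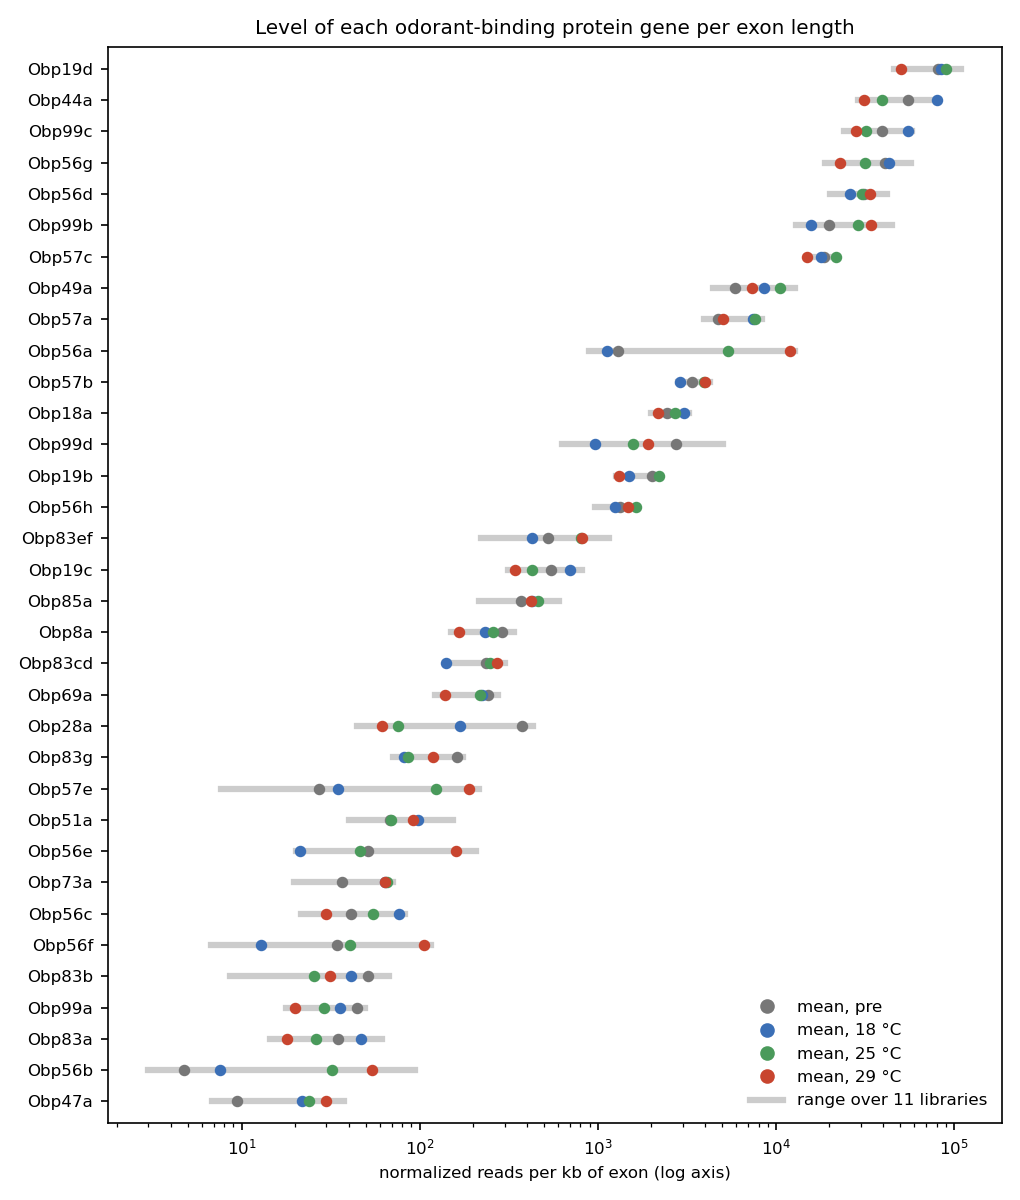
Normalized reads per kb of exon (log axis) for the 34 odorant-binding protein genes, one row per gene. Points are group means, with the pre-treatment group marked pre, and grey bars span the 11 libraries. The bar of Obp56b, which was 0 in 2 libraries, is drawn from the left edge of the axis range at 3. Obp19d leads with a mean of 75403, and wide shifts between groups are seen for Obp56a, Obp28a, Obp57e, Obp56e and Obp56f.

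As a share of all linear signal, the summed members made up 0.431 ± 0.058% before treatment (SD, n = 3), 0.507 ± 0.047% after 18 °C (n = 3), 0.445 ± 0.101% after 25 °C (n = 2) and 0.353 ± 0.031% after 29 °C (n = 3). These sums follow the few abundant members Obp19d, Obp44a, Obp56d and Obp99c. In these whole-head samples, fewer cells of a type and less RNA per cell cannot be told apart.

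The libraries held 32064412 to 123404737 reads in the table. Counting was precise for the abundant members, while Obp57e rested on 2, 11 and 9 reads in the pre-treatment libraries, and Obp56b had 0 reads in pre-treatment replicate 3 and in 18 °C replicate 3. A count of 3 was taken as an approximate upper limit on the expected count where 0 reads were seen. It was worth between 1.42 and 5.98 normalized reads, depending on the library. Such limits cover counting error only, since reads carry no molecular identifiers.

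Libraries of a group were not alike. Pre-treatment replicate 3, 18 °C replicate 3 and 25 °C replicate 2 held the highest value of their group for 12 of the 34 members, which is 35.3%, against 27.1% of all 12676 genes tested. The first component of the deviations from group means, computed over all genes, carried 48.5% of the variance within groups and was highest in the same 3 libraries. Across the 11 libraries the deviations of Obp19d, Obp56a, Obp99d, Obp83ef, Obp56d and Obp56g correlated with it at 0.92 to 0.99, and those of Obp49a, Obp57a, Obp57b and Obp56h at -0.96 to -0.82. These correlations are descriptions, since the members are among the genes that built the component.

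The largest gap of these members was in Obp99d, which had 1267 normalized reads in one 25 °C library and 315 in the other, a ratio of 4.02. For Obp19d the 2 libraries at 25 °C had 76911 and 121336, and for Obp49a, needed for taste of mixtures that contain bitter compounds, they had 9967 and 6494. The part of this pattern in the group differences below was not tested apart from the alternatives named with them.

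**Figure D2:**
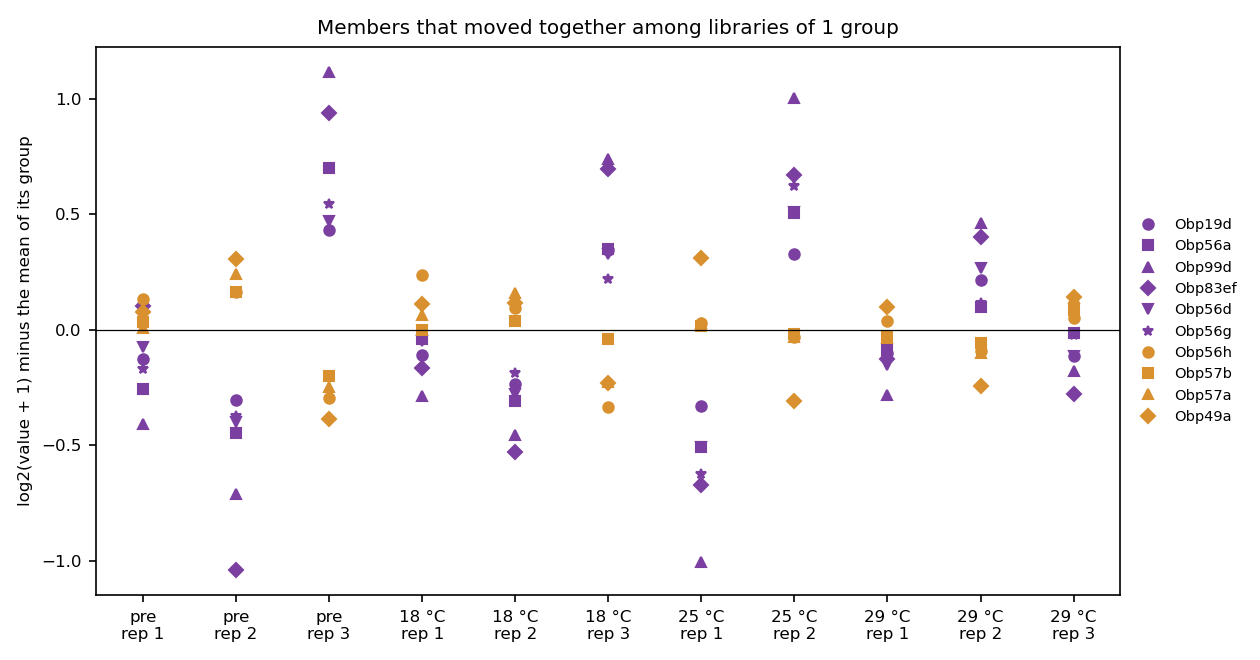
Deviation of each library from the mean of its group, as log2(value + 1), for the 6 members that followed the first within-group component most closely (purple) and the 4 that ran against it (orange). Libraries are on the horizontal axis by group and replicate, and pre marks the pre-treatment group. Purple points lie above 0 and orange points at or below 0 in pre-treatment replicate 3, 18 °C replicate 3 and 25 °C replicate 2.

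After 10 days at 25 °C, 3 of the 34 members rose relative to pre-treatment heads (Obp56a, Obp57e and Obp57a) and 2 fell (Obp28a and Obp83g). Over all genes tested the same call was made for 2.77% in the upward and 2.66% in the downward direction. A call required a limma adjusted p under 0.05 over all 12676 genes and a log2 fold change beyond 0.5 on the log2(value + 1) scale, which understates the change of low genes. The median absolute log2 difference was 0.40 over the members and 0.20 over all genes. Values of the groups did not overlap for 17 members, against 30.4% of all genes. P-values measure only the spread between these libraries.

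Obp56a, on chromosome 2R at 19697723 to 19698508, had 1956 and 3946 normalized reads at 25 °C, against 556, 487 and 1079 in pre-treatment heads. Both older libraries were above every younger one, and the higher of them was the library that stood apart. The rise was 4.17-fold in means, with a log2 fold change of 2.06 ± 0.36 (SE) and an adjusted p of 0.00619. Fitted on these 2 groups alone its adjusted p was 0.093.

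Obp57e, known in this genus for the taste of host plant acids, had 30.2 and 71.2 normalized reads at 25 °C, against 3.14, 12.5 and 17.9 in pre-treatment heads. The groups did not overlap, but the level was low and the libraries of each group were spread widely. Its log2 fold change was 2.22 ± 0.59 with an adjusted p of 0.0469, and the call was lost without any 1 of 10 libraries, all but pre-treatment replicate 3, at adjusted p of 0.052 to 0.196.

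Obp57a had 4374 and 4199 normalized reads at 25 °C, against 2624, 3083 and 2198 in pre-treatment heads. The older libraries lay close together and above all younger ones, a 1.63-fold rise in means (log2 fold change 0.72 ± 0.15, adjusted p = 0.0155). Without 25 °C replicate 1 or 25 °C replicate 2 the adjusted p was 0.105 or 0.052.

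Obp28a, an antennal carrier that binds floral odours, fell to 31.1 and 56.4 normalized reads at 25 °C, against 248, 172 and 225 in pre-treatment heads. Every older library was below every younger one by a wide margin. This was the strongest age effect of the called members, 4.92-fold lower in means, with a log2 fold change of -2.32 ± 0.33 and an adjusted p of 0.00246, and it passed under all 22 alternatives (other filters, pseudocounts, scalings, covariates and count tests, and the omission of each library).

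Obp83g fell to 48.5 and 48.9 normalized reads at 25 °C, against 84.9, 99.2 and 91.7 in pre-treatment heads. The groups stood well apart (1.89-fold lower, log2 fold change -0.90 ± 0.20, adjusted p = 0.0213). Its call was lost without pre-treatment replicate 2, 25 °C replicate 1 or 25 °C replicate 2, at adjusted p of 0.052, 0.119 and 0.075, and with only these 2 groups in the fit (adjusted p = 0.205). Over the members, the counts were 1 higher and 1 lower without 25 °C replicate 1, 4 lower without 25 °C replicate 2 and 1 lower without pre-treatment replicate 2.

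At 29 °C, 6 of the 34 members rose relative to 18 °C and 9 fell, against 5.36% and 5.29% of all genes tested. The rises were led by genes of the Obp56 and Obp57 clusters, and the falls took in abundant members and antennal carriers. The median absolute log2 difference was 0.77 over the members and 0.21 over all genes, and the groups did not overlap for 25 members, against 42.9% of all genes. The median signed difference was -0.10 over the members and -0.0037 over all genes. Without 18 °C replicate 1 or 29 °C replicate 2, 5 members fell in place of 9.

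Some markers of other cell types of the head moved in the same comparisons. At 29 °C over 18 °C, 5.36% of all genes were called higher and 5.29% lower. Of 10 photoreceptor genes 4 rose and 0 fell in that comparison. Their sum was 2218140 to 2341010 normalized reads at 29 °C and 1571500 to 1599640 at 18 °C. Of 9 muscle genes 2 rose and 2 fell, with sums of 301579 to 306331 at 29 °C and 211106 to 234819 at 18 °C. With age 4 of the 9 muscle genes fell and 0 rose, against 2.66% and 2.77% of all genes. The muscle sums were 260164 to 300749 at 25 °C and 384247 to 469471 in pre-treatment heads. Of the 10 photoreceptor genes 0 were called with age. Of 9 neuron genes 0 were called at 29 °C over 18 °C. Their sums were 399265 to 424487 at 29 °C and 349929 to 403710 at 18 °C. With age 0 neuron genes rose and 1 fell (Gad1). The neuron sums were 362890 to 409466 at 25 °C and 430674 to 473720 in pre-treatment heads. None of the photoreceptor, muscle or neuron genes was at 0 in any library. Their part in the differences of the members was not tested.

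Obp56a had 6195, 7049.7 and 6504 normalized reads at 29 °C, against 589.9, 490.0 and 774 at 18 °C. It was the largest rise among the members by log2 fold change. The means differed 10.7-fold (log2 fold change 3.43 ± 0.32, adjusted p = 8.83e-05).

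Its neighbour Obp56e had 95.1, 52.3 and 109.7 normalized reads at 29 °C, against 12.3, 10.9 and 10.7 at 18 °C. Every warm library was far above the cool ones, which lay close together. The means differed 7.56-fold, and the log2 fold change was 2.75 ± 0.32 (adjusted p = 0.000302). Obp56f, which is also known as a seminal fluid protein, had 61.1, 56.6 and 49.6 at 29 °C, against 11.7, 5.22 and 3.58 at 18 °C. Again the groups stood far apart, 8.18-fold in means (log2 fold change 2.99 ± 0.48, adjusted p = 0.00193).

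Obp57e had 66.2, 88.2 and 78.9 normalized reads at 29 °C, against 11.7, 13.3 and 17.9 at 18 °C. The means differed 5.45-fold, and this rise (log2 fold change 2.38 ± 0.53, adjusted p = 0.0112), unlike that with age, passed under every alternative run. Marker genes of the male reproductive tract, where several of these proteins are also made, were low in these heads. Of 19 listed genes 9 were in the table, and 1 of the 8 tested rose at 29 °C over 18 °C (Dup99B, 5.36% of all genes). The sum of the 9 was 892 to 1009 normalized reads at 29 °C and 872 to 1004 at 18 °C.

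Obp99b, a target of the sex determination pathway in male head fat body, had 13534, 20928 and 26556 normalized reads at 29 °C, against 8918, 7700.1 and 11577 at 18 °C. The warm libraries were spread widely, yet each was above every cool one. The rise was 2.16-fold (log2 fold change 1.08 ± 0.24, adjusted p = 0.0102). Of 14 tested fat body markers, 1 rose and 3 fell in the same comparison (5.36% and 5.29% of all genes). Yp3 was the one that rose, and AkhR, mdy and to fell. The sum of all 15 listed genes ranged over 1024580 to 1278770 at 29 °C and 1199080 to 1487080 at 18 °C. That sum rested mostly on apolpp and FASN1, neither of them called. Their means were 775800 and 313000 at 29 °C and 832500 and 309400 at 18 °C.

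Obp83cd, which has a pair of odorant-binding domains, had 214, 271 and 252 normalized reads at 29 °C, against 128, 126 and 124 at 18 °C. The cool libraries were nearly identical, and each warm one was above them (1.95-fold, log2 fold change 0.95 ± 0.14, adjusted p = 0.00111).

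Abundant members were among those that fell. Obp44a, the glial carrier, had 31696, 38889.8 and 31072 normalized reads at 29 °C, against 86014, 84355 and 88116 at 18 °C. This difference of 2.54-fold was many times the spread within groups (log2 fold change -1.35 ± 0.12, adjusted p = 8.82e-05). Of 13 glial marker genes 5 were called in the same comparison, all of them lower at 29 °C (5.29% of all genes), and the sum of all 13 was 139331 to 151509 at 29 °C and 207088 to 221097 at 18 °C. With age 5 of the 13 were also called lower (2.66% of all genes), with sums of 164976 to 178332 at 25 °C and 224856 to 239914 in pre-treatment heads, and Obp44a had a log2 fold change of -0.50 ± 0.14 that was not called (adjusted p = 0.0543). None of the 13 was at 0 in any library. At 18 °C over pre-treatment heads 0 of the 13 were called higher and 2 lower (4.69% and 4.44% of all genes). These were Inx2 and e, while Obp44a was called higher there. At 18 °C over 25 °C 2 of the 13 were higher (Gat and nrv2) and 0 lower (1.55% and 1.68% of all genes), and Obp44a was higher. The part of these glial genes in the change of Obp44a was not tested.

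Obp99c had 16089.7, 20612 and 19596 normalized reads at 29 °C, against 38177, 33671 and 39059 at 18 °C. All 3 warm libraries lay below all cool ones (1.97-fold lower, log2 fold change -0.98 ± 0.11, adjusted p = 0.000299). Obp19d had 51277, 63838 and 50889 at 29 °C, against 85669, 78493 and 117310.0 at 18 °C. The 18 °C libraries were spread widely, and the call (log2 fold change -0.75 ± 0.23, adjusted p = 0.048) was lost without pre-treatment replicate 1 or any 1 of the 6 libraries compared, at adjusted p of 0.055 to 0.151.

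Obp19c, next to Obp19d on the X chromosome, had 307, 367 and 337 normalized reads at 29 °C, against 649.6, 610.5 and 803 at 18 °C. The separation was clear, 2.04-fold in means (log2 fold change -1.02 ± 0.17, adjusted p = 0.00257).

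Of the 4 antennal carriers named above, Obp28a, Obp83a and Obp69a fell at 29 °C (5.29% of all genes were called lower), and of these calls Obp28a's alone was kept on leaving out any 1 library. The antennal carriers lush and a10, described below, rose. Obp28a had 44.2, 37.0 and 25.6 normalized reads at 29 °C, against 121, 72.6 and 99.0 at 18 °C. The groups were well separated at this low level (2.74-fold lower, log2 fold change -1.43 ± 0.30, adjusted p = 0.00791). Obp83a, a carrier of the trichoid hairs, had 22.9, 16.3 and 14.3 at 29 °C, against 43.2, 34.2 and 60.9 at 18 °C. Each warm library rested on 15 to 27 reads, and the call (log2 fold change -1.31 ± 0.36, adjusted p = 0.032) was lost without 18 °C replicate 1 or 3 or 29 °C replicate 2 or 3, at adjusted p of 0.088 to 0.115.

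Obp69a had 66.2, 71.9 and 90.2 normalized reads at 29 °C, against 122, 139 and 109 at 18 °C. Its call was at the edge (log2 fold change -0.69 ± 0.22, adjusted p = 0.0498) and was lost under 13 of 22 alternatives, among them the omission of pre-treatment replicate 1 or 2 or of any 1 of the 6 libraries compared, at adjusted p of 0.058 to 0.167. The fourth carrier, Obp83b, had 16.6 ± 2.68 at 29 °C and 21.8 ± 4.51 at 18 °C (SD, n = 3 each) and was not called (adjusted p = 0.689).

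Obp56c had 28.9, 37.0 and 21.0 normalized reads at 29 °C, against 72.7, 80.6 and 69.2 at 18 °C. It ran opposite to the other called genes of its cluster (2.56-fold lower, log2 fold change -1.36 ± 0.27, adjusted p = 0.00573). Obp57a had 2747, 2623 and 3091 at 29 °C, against 4346, 4645 and 3556 at 18 °C. This fall was the smallest of the 9 (log2 fold change -0.56 ± 0.13, adjusted p = 0.0146), and it was lost without 18 °C replicate 1 or 2 or 29 °C replicate 1 or 2, at adjusted p of 0.056 to 0.062.

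**Figure D3:**
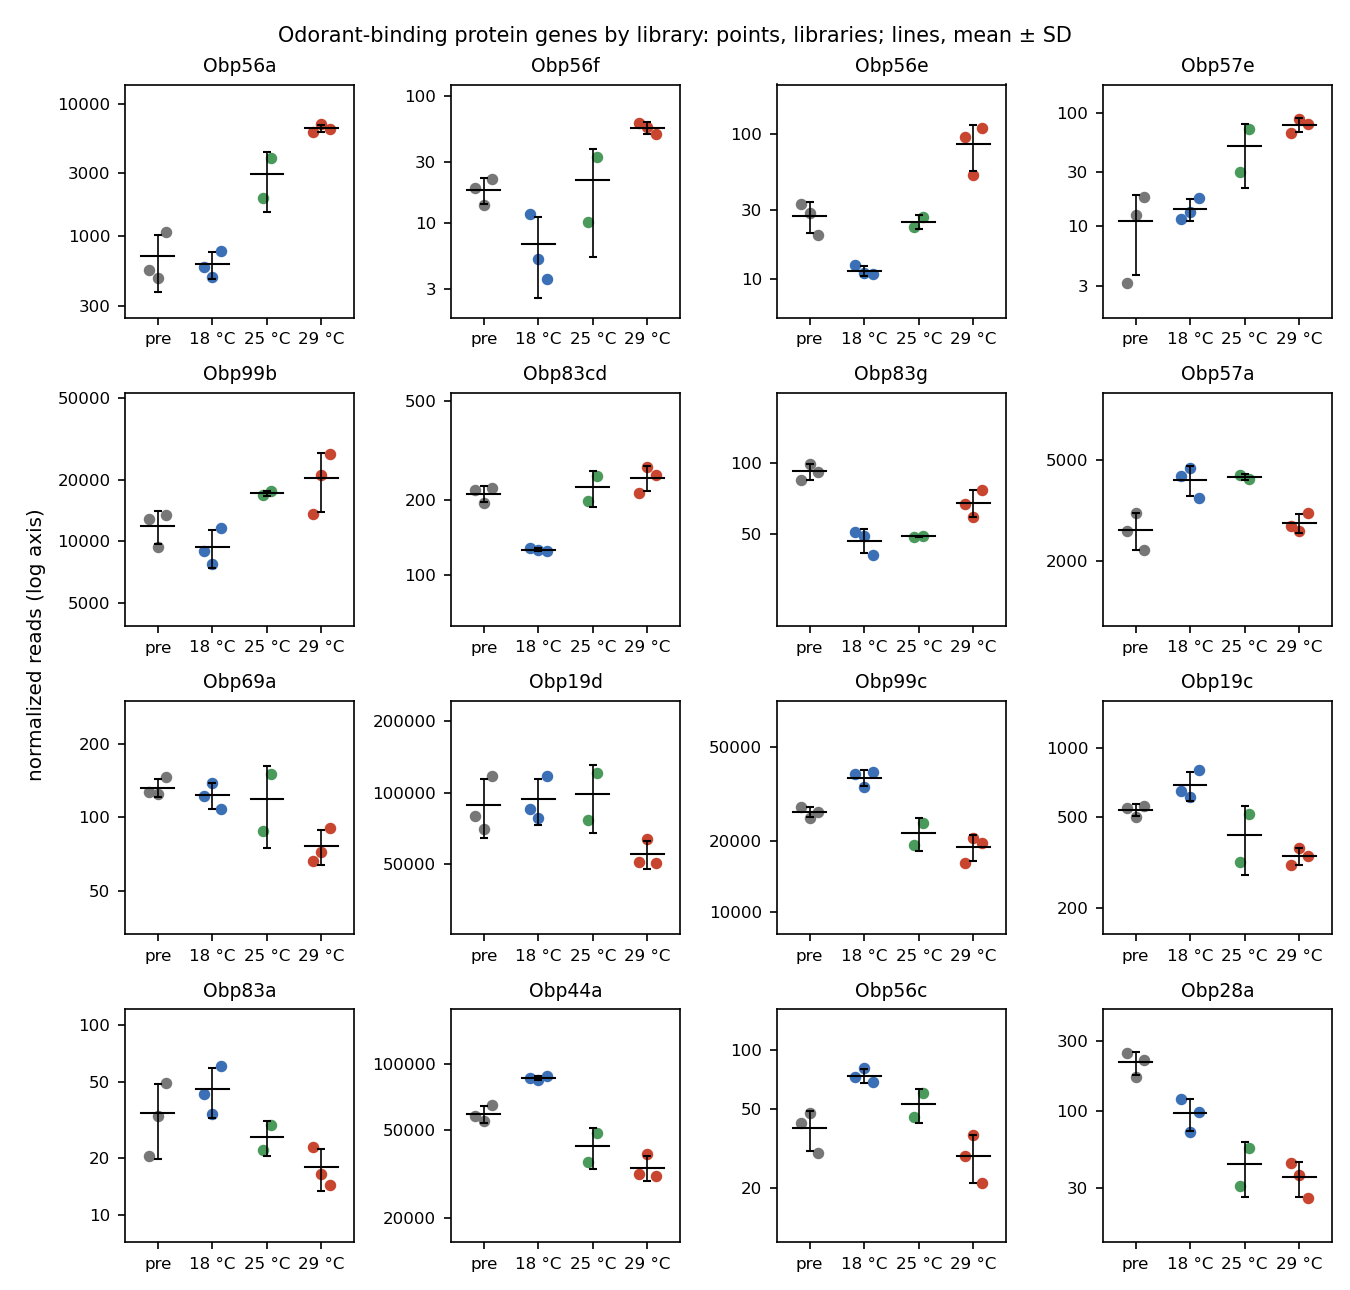
Normalized reads (log axis, a different range in each panel) of the 16 members called for age or for temperature, in pre-treatment heads (pre) and after 10 days at 18, 25 and 29 °C. Each point is 1 library, and black lines give the group mean with its SD. Panels run from the largest rise at 29 °C over 18 °C (Obp56a, 10.7-fold) to the largest fall by log2 fold change (Obp28a, 2.74-fold).

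Whether age and warmth acted in opposite directions was asked gene by gene. The signs of both differences were opposite for 13 of the 34 members, which is 38.2%, against 40.8% of all genes tested, a share near that background. Both differences were upward for 11 members and downward for 10, while 8 were higher with age and lower in the warm, and 5 the reverse. Most of these signs belong to differences that did not pass the test. The 4 members called in both comparisons (2.06% of all genes) were Obp56a and Obp57e, higher in both, Obp28a, lower in both, and Obp57a, higher with age and lower in the warm. Calls in opposite directions were made for 0.387% of all genes and calls in the same direction for 1.67%. Across the 34 members the 2 log2 differences correlated with an r of 0.58, against 0.30 across all genes, values over genes that are not independent of each other.

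The difference between the temperature effect and the age effect was tested in the same limma model, with a call at adjusted p under 0.05. It was called for 9 members, against 7.04% of all genes. The temperature effect was above the age effect (3.12% of all genes) for Obp56f, Obp56e, Obp83g and Obp83cd, by 2.95 ± 0.72, 2.85 ± 0.48, 1.42 ± 0.27 and 0.88 ± 0.21 on the log2 scale. It was below the age effect (3.91% of all genes) for Obp56c, Obp57a, Obp44a, Obp99c and Obp18a, by -1.77 ± 0.40, -1.28 ± 0.20, -0.85 ± 0.19, -0.68 ± 0.17 and -0.65 ± 0.15. The calls of Obp57a, Obp56e and Obp83g (adjusted p = 0.00419, 0.00603 and 0.0116) held under every alternative run.

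Only Obp57a combined 2 opposite calls in the main fit. With depth as a covariate both of its effects kept their signs. They were then under the size required for a call (log2 fold change 0.49 with age and -0.43 with temperature). Its age call was also lost with only the compared groups in the limma fit (adjusted p = 0.11). Obp83g fell with age and had 67.1, 58.8 and 76.7 normalized reads at 29 °C, against 50.8, 48.9 and 40.6 at 18 °C, which did not pass (log2 fold change 0.52 ± 0.18, adjusted p = 0.0726). For Obp56e and Obp56f the age differences were near 0, at -0.10 ± 0.36 and 0.04 ± 0.54, beside rises of 2.75 and 2.99 with temperature. The number of members with a called difference was 5 without pre-treatment replicate 1 or 18 °C replicate 2, and 4 without 18 °C replicate 1, 29 °C replicate 1 or 29 °C replicate 3.

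**Figure D4:**
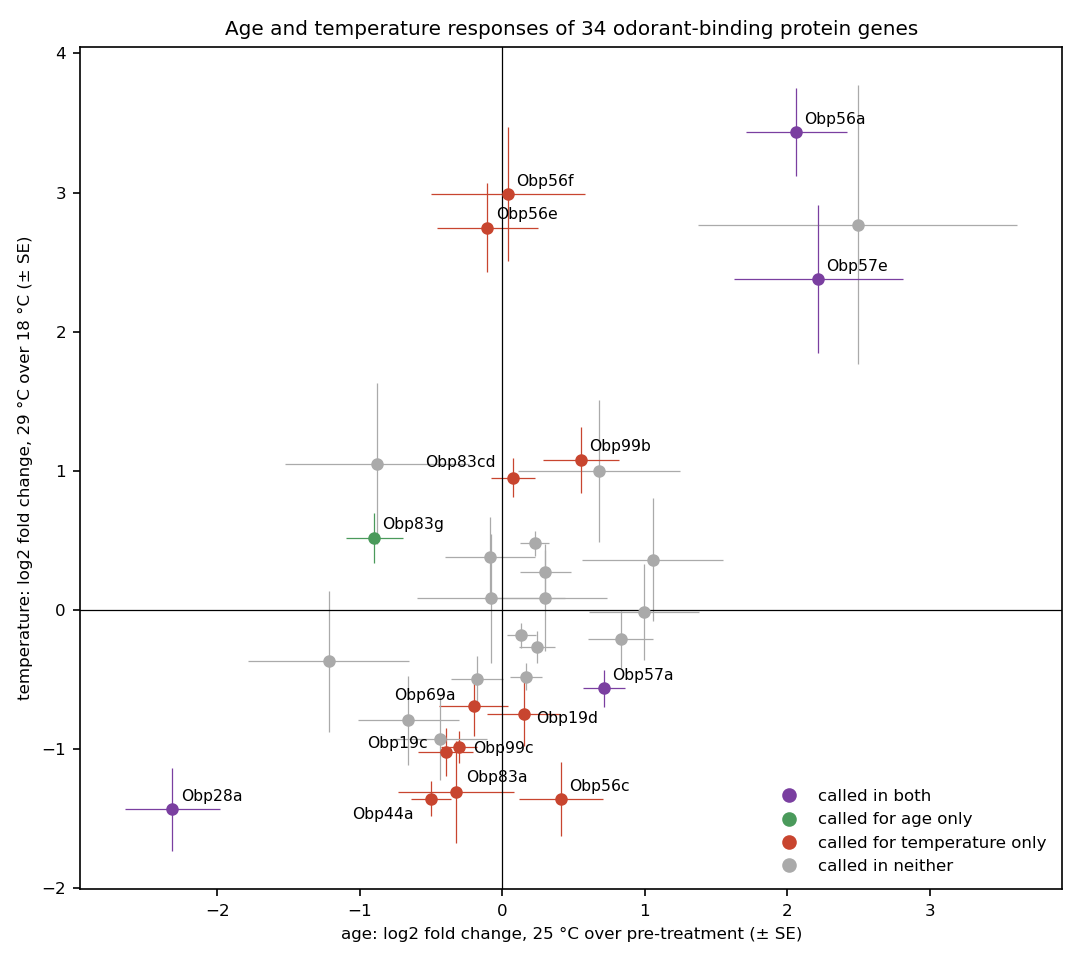
Age effect (horizontal, log2 fold change of 25 °C over pre-treatment) against temperature effect (vertical, 29 °C over 18 °C) of the 34 members, with SE bars. Obp56a and Obp57e are at the upper right, Obp28a at the lower left, and Obp57a is the only member called in both with opposite signs (0.72 and -0.56).

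The other comparisons show on which side of the starting level the change lay. They share their pre-treatment or 25 °C libraries with each other and with the age comparison. At 29 °C against pre-treatment heads 7 members rose and 8 fell (5.92% and 6.89% of all genes), and at 18 °C against pre-treatment heads 3 rose and 4 fell (4.69% and 4.44%). Leaving out 1 library gave 3 to 6 that rose and 4 to 10 that fell at 29 °C, and 1 to 4 that rose and 2 to 5 that fell at 18 °C.

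Obp44a lay above its pre-treatment level in the cool and below it in the warm. Its log2 fold change was -0.81 ± 0.12 at 29 °C (adjusted p = 0.00128) and 0.54 ± 0.12 at 18 °C (adjusted p = 0.0156), relative to 57757, 54885 and 65051 normalized reads before treatment. Obp56e had the mirror pattern, with 1.58 ± 0.32 at 29 °C (adjusted p = 0.00583) and -1.16 ± 0.32 at 18 °C (adjusted p = 0.0332), relative to 33.0, 28.5 and 19.9 before treatment.

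Obp56a stayed at its starting level in the cool (618 ± 144 at 18 °C, against 707 ± 324 in pre-treatment heads, adjusted p = 0.823). Obp57a was higher at 18 °C, like at 25 °C, than in pre-treatment heads (log2 fold change 0.67 ± 0.13, adjusted p = 0.00792), and had 2820.4 ± 242 at 29 °C, against 2635 ± 443 in pre-treatment heads (adjusted p = 0.592). Obp83g was low at 18 °C as at 25 °C (log2 fold change -0.96 ± 0.18 at 18 °C, adjusted p = 0.00585). Obp28a was below its starting level at every temperature, with ratios to it of 0.453 in the 18 °C flies, 0.203 in the 25 °C flies and 0.165 in the 29 °C flies.

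Against 25 °C flies of the same time, 29 °C flies had 0 members higher and 1 lower (0.245% and 0.394% of all genes) by limma. At an unadjusted p under 0.05 there were 4 higher and 9 lower (10.1% of all genes in either direction). The count tests edgeR and DESeq2 called 1 and 2 members higher, beside 35 and 105 over all genes. The called gene was Obp19b, needed for amino acid taste, with 819, 842 and 876 normalized reads at 29 °C, against 1422 and 1427 at 25 °C. Its 18 °C libraries had 976, 870.0 and 1037, so that both shifts lay below 25 °C (log2 fold change -0.75 ± 0.10 at 29 °C, adjusted p = 0.00819, and -0.57 ± 0.10 at 18 °C, adjusted p = 0.0112). The 29 °C call of this comparison was lost without 25 °C replicate 1, when 0 members fell, and 2 fell without pre-treatment replicate 3.

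In 18 °C flies against 25 °C flies, 2 members were higher (Obp44a 2.04-fold and Obp99c 1.72-fold) and 3 lower (Obp56a 4.78-fold, Obp83cd 1.78-fold and Obp19b 1.48-fold), against 1.55% and 1.68% of all genes. Without 25 °C replicate 1 the count of higher members was 1, and without 25 °C replicate 2 the count of lower members was 0.

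Libraries were ordered 18, 25 and 29 °C without overlap and rising for Obp56a and Obp56e (3.97% of all genes), and falling for Obp56c and Obp18a (4.58%). Obp18a had 2393, 2296 and 2038 normalized reads at 18 °C, 2007 and 1997 at 25 °C, and 1457, 1644 and 1726 at 29 °C. This decline was steady but small, with a log2 fold change of -0.48 ± 0.10 at 29 °C over 18 °C (adjusted p = 0.00756), just under the size required for a call.

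By position, 16 members lie on chromosome 2R, 10 on 3R, 5 on X, 2 on 3L and 1 on 2L, in coordinates of the Ensembl release 115 annotation. Members with at most 50 kb between neighbours were counted as a cluster. Calls in both directions were made at 29 °C over 18 °C within 3 of the 5 clusters of 3 or more genes. In the others the differences had 1 sign. In the cluster of 6 genes from Obp56a to Obp56f, which spans 16.3 kb, Obp56a, Obp56e and Obp56f rose at 29 °C, Obp56c fell, and Obp56b and Obp56d were not called. Obp56d, abundant in taste organs, had 31181 ± 5184 normalized reads at 29 °C and 24047 ± 5211 at 18 °C (SD, n = 3 each, adjusted p = 0.415). Obp56b had 53.5, 29.4 and 9.77 at 29 °C, against 6.86, 6.17 and 0 at 18 °C, a difference that did not pass (adjusted p = 0.0859).

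In the cluster Obp57c, Obp57b, Obp57a and Obp57e, Obp57e rose and Obp57a fell at 29 °C, while Obp57b (3316 ± 179 at 29 °C and 2377 ± 64.3 at 18 °C) passed the test at a log2 fold change of 0.48, under the size required. Obp57a starts 1.57 kb and Obp57e 44.2 kb from the start of Obp57c. Among Obp99a, Obp99c, Obp99d and Obp99b, Obp99c fell and Obp99b rose. These 2 genes start 14.1 and 44.6 kb from the start of Obp99a. In the X cluster all 3 differences were negative: Obp19c and Obp19d fell and Obp19b did not pass (log2 fold change -0.18 ± 0.09). In the cluster Obp83cd, Obp83ef and Obp83g all 3 were positive (log2 fold changes 0.95, 1.00 and 0.52) with no overlap between the groups, and Obp83cd alone was called. The adjacent pair Obp83a and Obp83b had log2 fold changes of -1.31 and -0.37, and Obp83a alone was called.

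**Figure D5:**
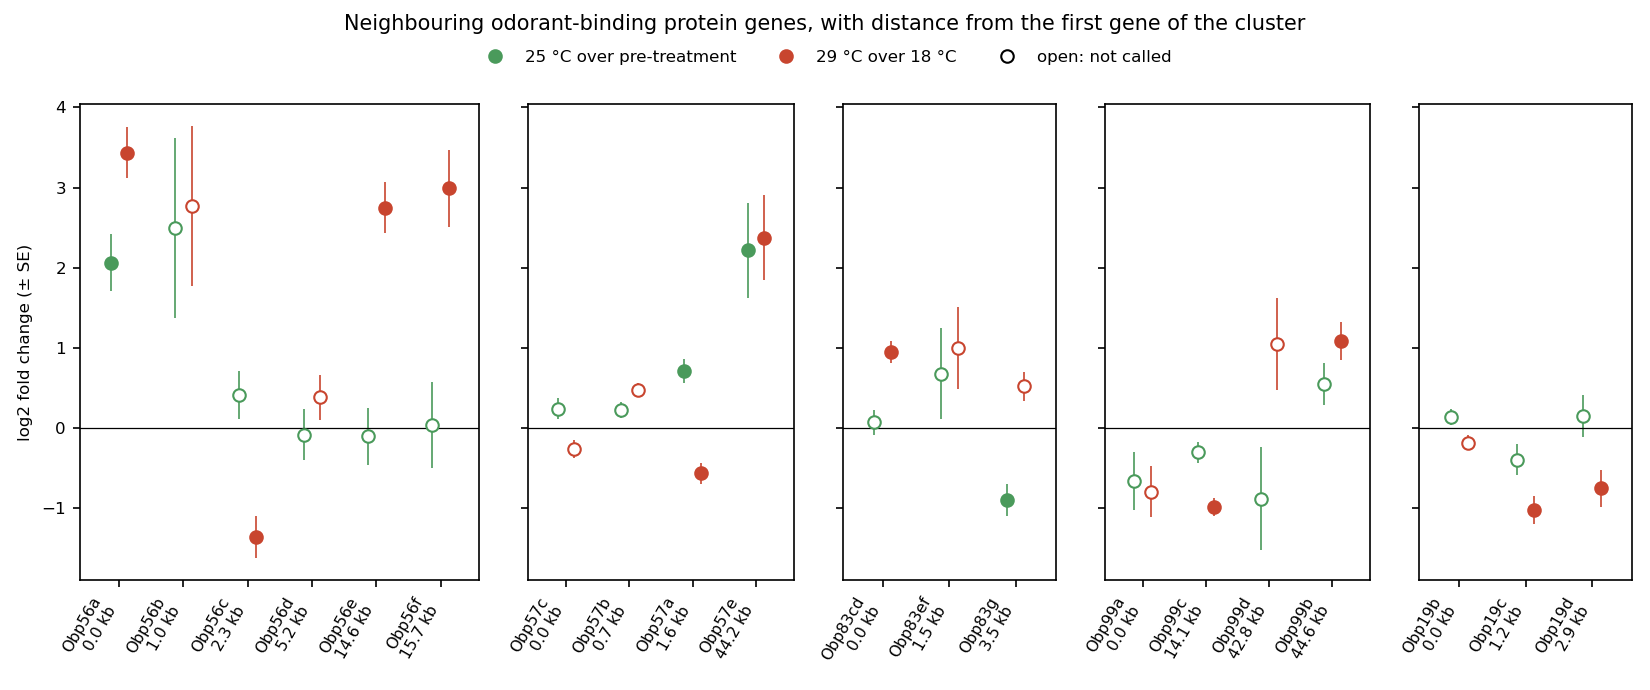
Log2 fold change (vertical, ± SE) with age (green) and with temperature (red) for members in clusters of 3 or more, in genomic order with the distance of each gene's start from that of the first. Filled points were called. In the first panel Obp56c, 2.3 kb from the start of Obp56a, lies at -1.36 between genes with positive values.

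Some members share bases with other genes. The exons of Obp83cd overlap those of Obp83ef, and those of Obp44a, Obp56e, Obp69a and Obp99c overlap exons of Pabp2, asRNA:CR44509, CG32104 and Gycalpha99B, all on the opposite strand. The values of asRNA:CR44509 were not analysed here. The library kit keeps strand, but the strand setting of the counting was not given, so reads of overlapped stretches may belong to either gene. Pabp2 had a log2 fold change of -0.32 and CG32104 of -0.29 at 29 °C over 18 °C, neither of them called, against -1.35 for Obp44a and -0.69 for Obp69a. Obp73a shares exon bases on its own strand with Ogdh, whose mean was 47173 normalized reads, so that its values are uncertain. It had 56.8 and 62.7 at 25 °C, against 25.1, 55.9 and 17.9 in pre-treatment heads.

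The 18 members called neither for age nor for temperature included both abundant and scarce genes. Obp56g, found in taste organs and in the male reproductive tract, had 11305 ± 832 normalized reads at 29 °C and 21538 ± 3120.2 at 18 °C, which did not overlap but missed the threshold (log2 fold change -0.92 ± 0.30, adjusted p = 0.0588). Obp49a had 8231 ± 2456 at 25 °C (n = 2) and 4607 ± 1070.5 in pre-treatment heads (log2 fold change 0.83 ± 0.23, adjusted p = 0.0513). Obp57c, Obp56h, which acts in courtship, and Obp85a had log2 differences between -0.26 and 0.30 in both comparisons, with the smallest adjusted p at 0.144.

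Wide spread within groups marked other uncalled members. Obp83ef had 659, 948 and 593 normalized reads at 29 °C, against 319.7, 249 and 581 at 18 °C, which did not overlap (log2 fold change 1.00 ± 0.51, adjusted p = 0.219). Obp99d had 770.2, 1288 and 827 at 29 °C, against 370.4, 329 and 754 at 18 °C, again apart by value but not called (log2 fold change 1.05 ± 0.58, adjusted p = 0.258). In both genes 1 of the 18 °C libraries, replicate 3, stood well above the other 2.

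The scarce genes Obp47a, Obp99a and Obp56b were called only against the starting level. Obp47a had 18.7, 9.80 and 15.8 normalized reads at 29 °C, against 4.71, 3.42 and 5.98 in pre-treatment heads, where each library held 3 reads (log2 fold change 1.45 ± 0.44, adjusted p = 0.0426). Obp99a had 14.4, 10.9 and 11.3 at 29 °C, against 25.1, 26.2 and 29.9 in pre-treatment heads (log2 fold change -1.10 ± 0.32, adjusted p = 0.0337). Neither pair of groups overlapped, at levels of few reads.

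The seminal fluid proteins Obp8a and Obp51a were low in heads. Obp8a had 111, 96.9 and 89.5 normalized reads at 29 °C, against 128, 148 and 144 at 18 °C. It missed the call (log2 fold change -0.49 ± 0.16, adjusted p = 0.061) but fell at 29 °C against pre-treatment heads (log2 fold change -0.80 ± 0.16, adjusted p = 0.00618). Obp51a had 36.4 ± 4.55 at 29 °C and 38.8 ± 22.2 at 18 °C.

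Of 54 other chemosensory genes listed (odorant and ionotropic receptors, other carriers), 36 were in the table and 24 were tested. With age 3 were called, all of them higher (2.77% of all genes), and at 29 °C over 18 °C 3 rose and 1 fell (5.36% and 5.29% of all genes). The carrier lush, itself an odorant-binding protein for a male pheromone that the symbol rule does not match, had 201, 232 and 301 normalized reads at 29 °C, against 101, 111 and 87.1 at 18 °C. It rose 2.46-fold (log2 fold change 1.27 ± 0.19, adjusted p = 0.00118), and with age it rose 2.69-fold (log2 fold change 1.42 ± 0.21, adjusted p = 0.00292), so that it moved the other way from Obp28a.

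The antennal protein a10 had 2227, 2773 and 2157 normalized reads at 29 °C, against 72.0, 70.7 and 85.9 at 18 °C, a 31.3-fold rise. Phk-3, of the same carrier family, rose 2.10-fold. Orco, the co-receptor of most odorant receptors, fell to 108 ± 14.7 at 29 °C, against 186 ± 12.3 at 18 °C (SD, n = 3 each, log2 fold change -0.79 ± 0.18, adjusted p = 0.0111). Antennal genes thus did not share a direction: of 5 tested antennal markers 2 rose and 1 fell (5.36% and 5.29% of all genes). The sum over all 8 was 4813 to 5315 at 29 °C and 2738 to 2795 at 18 °C. The higher sum rested on a10, since the other 7 summed to 2542 to 2656 at 29 °C and 2667 to 2709 at 18 °C.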

How the data were processed

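Ribodepleted, stranded total RNA libraries from fly heads were used. Per the study's methods the authors aligned reads with STAR to dm6, counted linear genes with featureCounts, found circRNAs separately, and scaled both together with 1 DESeq2 size factor per library. The deposited values are this normalized signal. Dividing them by the value of 1 read gave whole reads for 100% of values within a tolerance of 0.01, and these recovered reads, 32064412 to 123404737 per library, were used for edgeR 4.0.16 and DESeq2 1.42.0 as alternatives. Versions of STAR and featureCounts and the strand setting of the counting are not given in the sources used here.

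The 12676 linear genes that averaged at least 10 were fitted with limma 3.58.1 in R 4.3.3 on log2(value + 1), with a variance trend, all 11 libraries and 4 groups in 1 model, and Benjamini-Hochberg adjustment over all genes. Called genes had a log2 fold change beyond 0.5 in size at adjusted p under 0.05, and the difference of effects adjusted p under 0.05 alone. The fit was also run on simulated counts with known changes and independent spread. These lacked the component shared within groups, so they cannot show how the fit behaves under it. Positions, exon lengths and overlaps came from the Ensembl release 115 annotation, which held all 34 members. Of 1928 circRNAs, 0 named a host by an Obp symbol. Hosts given by another identifier were not searched, and circular RNA is not described.

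Every member could be named. Values of each library were given for members called for age or temperature and for the 3 of highest mean, and other members were described by range, count or the values a comparison turned on. Members and gene lists were chosen with earlier results of these data known. Groups and replicate numbers came from the sample labels. Same-numbered libraries did not deviate together, so no pairing was used. Alternatives were other pseudocounts (0.1 and 5), no filter or a mean of 50, scaling to total linear signal, a replicate block, depth as a covariate, only the groups compared, both count tests and the omission of each library. The first within-group component as a covariate was added after seeing the data. The labels and methods call the tissue head, while part of the design text speaks of brains.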

Additional observations from a re-analysis of the deposited data

Results flagged for a closer look

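For 9 members the effect of temperature (29 °C over 18 °C) differed from the effect of age (25 °C over pre-treatment) by the limma test of that difference, at an adjusted p under 0.05. The log2 temperature effect minus the log2 age effect was 2.95 for Obp56f, 2.85 for Obp56e, 1.42 for Obp83g, 0.88 for Obp83cd, -0.65 for Obp18a, -0.68 for Obp99c, -0.85 for Obp44a, -1.28 for Obp57a and -1.77 for Obp56c. Over all genes the share was 7.04%. Obp57a, Obp56e and Obp83g passed under every alternative run, with the highest adjusted p at 0.0197, 0.0283 and 0.042, while Obp56f passed under 9 of 20, Obp83cd and Obp99c under 12 of 21 each, Obp18a under 13 of 21, Obp56c under 14 of 20 and Obp44a under 16 of 21. Obp57a alone was called in opposite directions in the 2 comparisons of the main fit, and both of these calls were lost with depth as a covariate. The other 8 differ in size or in a sign that did not pass on its own.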

How the results depend on the processing

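Of 20 calls of named members for age or temperature, 12 were kept under every alternative run, 8 were lost under at least 1, and 0 reversed. Of 285 recomputed counts of members 227 stayed within 1.5 times the main count. With only the compared groups in the fit, 0 members were higher and 1 lower at 25 °C over pre-treatment (3 and 2 in the full fit). At 18 °C over 25 °C, 0 were higher and 0 lower (2 and 3). The counts over all genes moved too, to 57 and 63 at 25 °C over pre-treatment (351 and 337 in the full fit). At 18 °C over 25 °C they were 48 and 39 (197 and 213). A minimum mean of 50 left 24 members to test, of which 3 rose at 29 °C over 18 °C (6 in the full set) and 2 at 29 °C over pre-treatment (7). With depth as a covariate the counts were 2 higher and 4 lower at 29 °C over 25 °C and 4 higher at 18 °C over 25 °C. They were 4 lower at 29 °C over pre-treatment and 2 lower at 18 °C over pre-treatment. Over all genes depth gave 67 higher and 96 lower at 29 °C over 25 °C (31 and 50 without it). It gave 351 higher at 18 °C over 25 °C (197) and 687 lower at 29 °C over pre-treatment (874). Of the count tests on recovered reads, edgeR gave 1 higher at 29 °C over 25 °C, and DESeq2 gave 2 higher and 4 lower there and 4 higher and 5 lower at 18 °C over 25 °C. With the first within-group component as a covariate, chosen after seeing the data and built from the deviations it then removes, the counts were 6 higher at 25 °C over pre-treatment, 10 higher at 29 °C over 18 °C, 3 higher and 5 lower at 29 °C over 25 °C, 5 higher and 7 lower at 18 °C over 25 °C, 5 higher at 18 °C over pre-treatment, and 19 differences of effects. Apart from these constructions the cause was not tested.

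Replicate numbers did not pair the libraries: same-numbered libraries correlated at -0.47 to 0.47, with 6 of 15 pairs above 0.1. With a replicate block, 1 member was lower at 25 °C over pre-treatment and 5 differences of effects were called, and the calls of Obp83g for age (adjusted p = 0.0702) and Obp69a for temperature (adjusted p = 0.0612) were lost. No other call for age or temperature was lost with the block. Over all genes the block gave 260 lower at 25 °C over pre-treatment, against 337 in the full fit.

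Leaving out 1 library at a time gave 1 to 4 higher and 1 to 4 lower at 25 °C over pre-treatment, 6 to 7 higher and 5 to 10 lower at 29 °C over 18 °C, 0 to 1 higher and 0 to 2 lower at 29 °C over 25 °C, 1 to 3 higher and 0 to 4 lower at 18 °C over 25 °C, 3 to 6 higher and 4 to 10 lower at 29 °C over pre-treatment, 1 to 4 higher and 2 to 5 lower at 18 °C over pre-treatment, and 4 to 10 differences of effects. Without one 25 °C library that group held 1 library, assumed to vary like the others. Depth limits the members of few reads, among them Obp57e, Obp56b, Obp47a and Obp83a.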
